A study of Homo sapiens with 4 samples.

Results

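The genes described here encode the enzymes that pass ubiquitin to its substrates. They were chosen by symbol: ubiquitin-conjugating enzymes (UBE2), HECT ligases (UBE3, HERC, HECTD, NEDD4, WWP and ITCH), cullins, F-box proteins (FBXO, FBXW and FBXL), numbered RNF genes with STUB1, and numbered TRIM genes, all protein-coding. Of these genes, 212 carried at least 1 peak in an RNA immunoprecipitation sequencing (RIP-seq) experiment for NSUN2, out of 12396 protein-coding genes with a peak. The genes held 926 of the 48104 peaks listed for lactate and 1624 of the 95785 peaks listed for ddH2O, which merged into 2000 of 116484 peak regions. Wild-type PANC-1 cells, an established line of human pancreatic ductal adenocarcinoma, had received 30 mM sodium lactate or the ddH2O vehicle for 24 h, and RNA was then pulled down with an anti-NSUN2 antibody. An input library without antibody was taken from each lysate before the pull-down. Each condition thus has a single immunoprecipitation (IP) library and a single input, 4 libraries together, so no value below has a replicate error, and differences compare these libraries rather than the treatments. A library made with a control antibody was not analysed here.

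Ubiquitin is activated by an E1 enzyme, handed to an E2 conjugating enzyme and attached to a substrate with the help of an E3 ligase. HECT ligases take the ubiquitin onto a cysteine of their own, whereas RING ligases, among them many RNF and TRIM proteins, bring a charged E2 next to the substrate. Cullins are scaffolds that join a RING subunit to exchangeable adaptors, and F-box proteins are the substrate adaptors of CUL1 in SCF ligases. NSUN2 is an RNA methyltransferase that makes 5-methylcytosine (m5C), and the study asks how lactate alters this protein and the RNAs it binds.

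The regions around the merged peaks, windows of 2000 bases, summed to about 9756111 reads for the lactate IP and 9553791 for the ddH2O IP. Leaving out the mitochondrial rRNA MT-RNR2 and the nuclear RNA MALAT1, however, left sums of 1945000 and 3536821 reads, a 1.82-fold difference in favour of ddH2O. Neighbouring windows overlap, so these sums count some reads more than once. The windows of the ubiquitin genes held a median of 6 lactate and 8 ddH2O reads, with maxima of 1120 and 1763. Keratins that mark ductal epithelium (KRT7, KRT8, KRT18 and KRT19) had peaks in both lists, and the densest, in an exon of KRT18, held 2737 and 8085 reads.

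Most of the ubiquitin genes carried NSUN2 peaks. RefSeq lists 289 protein-coding genes that match the symbols, of which 211 (73.0%, 95% Wilson interval 67.6 to 77.8%) had a peak in at least 1 list, and the readthrough gene UBE2F-SCLY brings the total to 212. In the lactate list the share of these genes with a peak was 60.6% (54.8 to 66.0%), against 47.1% of all 20056 protein-coding genes. In the ddH2O list it was 71.3% (65.8 to 76.2%), against 58.4%. Peaks in both lists were found for 171 genes, with lactate alone for 5 (FBXO3, FBXW10, HERC6, RNF125 and RNF128, each with 1 peak) and with ddH2O alone for 36. In percent this was 2.36% with lactate alone and 17.0% with ddH2O alone, beside 4.25% and 22.8% of the 12396 protein-coding genes with a peak. With the ddH2O list reduced to as many peaks as the lactate list, 176 genes had a peak in each list and 15 in each list alone, 7.85% either way, beside 11.7% with lactate alone and 13.2% with ddH2O alone over all protein-coding genes. The deposited annotation places 53 of the 212 in the KEGG pathway of ubiquitin mediated proteolysis. Gene length moved with these counts: genes of the set with a peak spanned a median of 43.3 kb, those without spanned 11.0 kb, and all protein-coding genes 24.1 kb. Across the 212 genes the number of peaks ranked with the span (Spearman rho 0.59 for lactate and 0.69 for ddH2O) and between the lists (rho 0.87), which share the genes' lengths and expression in the same line. The part of length in the higher share of genes with a peak was not tested.

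The families differed in how many of their genes were represented. All 8 cullins and 18 of 19 HECT ligases (94.7%) had a peak, the exception among the latter being HERC5. Of the E2 enzymes, 30 of 36 (83.3%) had one, and of the F-box genes 52 of 63 (82.5%). The RNF genes with STUB1 reached 61 of 86 (70.9%) and the TRIM genes 42 of 77 (54.5%). These shares, like the 73.0% of the whole set, count a peak in either list. That share over all protein-coding genes was not computed. The TRIM share was below the 58.4% of all protein-coding genes with a peak in the ddH2O list. The TRIM family also had the most genes listed for ddH2O alone, 13 of 42, among them TRIM21, an antibody receptor of the cytosol. UBE2C, the E2 that works with the anaphase-promoting complex, had no peak in either list. STUB1, a U-box ligase that the study names as a regulator of NSUN2 turnover, had none either. STUB1 spans 2.39 kb and UBE2C 4.31 kb, and the F-box gene FBXW5, which spans 4.30 kb, carried a peak in both lists.

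The number of peaks per gene ranged widely. UBE2E2, an E2 enzyme whose gene spans 389 kb on chromosome 3, had the most in both lists, 25 for lactate and 45 for ddH2O, nearly all of them intronic (23 and 44). RNF216, a ligase of the RING-between-RING type, had 23 and 42 peaks. UBE2G1, an E2 enzyme, had 23 and 30, and FBXO11, the SCF adaptor known for BCL6, had 21 and 35. A typical gene had far fewer, with a median of 3 peaks per gene for lactate and 5 for ddH2O, beside 2 and 3 over all protein-coding genes.

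Peaks of the ubiquitin genes lay in introns more often than those of protein-coding genes at large. In the lactate list 67.5% (64.4 to 70.4%) were intronic, beside 61.5% of all protein-coding peaks, and in the ddH2O list 67.7% (65.4 to 69.9%), beside 61.2%. The difference was taken up by exons, which held 13.6% (11.5 to 16.0%) of the lactate peaks against 18.8%, and 14.7% (13.1 to 16.5%) with ddH2O against 21.0%. The 3' UTR shares were close to those of all protein-coding peaks, at 17.5% against 18.1% for lactate and 15.6% against 15.8% for ddH2O. The 5' UTR held 1.40% and 2.03%, beside 1.58% and 1.98%. Among peaks with a q-value below 0.05 the intronic share was 59.3% (54.4 to 64.1%) for lactate and 60.1% (56.7 to 63.3%) for ddH2O, and for all protein-coding peaks 48.4% and 50.2%. These intervals cover counting error only, and genes of the set with a peak are longer than the average gene.

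The peaks were of ordinary height. Their median fold over input was 3.61 for lactate, beside 3.24 for all protein-coding peaks, and 3.10 for ddH2O, beside 3.03. A q-value below 0.05 was reached by 42.2% (39.1 to 45.4%) for lactate and 52.6% (50.2 to 55.0%) for ddH2O, beside 44.6% and 50.9%. Every listed peak had been selected for enrichment, so these levels compare listed peaks with each other.

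In what follows, pairs of read counts give the lactate IP first and the ddH2O IP second, and positions are on GRCh38. Among the E2 enzymes the densest windows lay at the 3' ends of UBE2Z, UBE2G2 and UBE2R2. UBE2Z, an E2 charged by the activating enzyme UBA6, held 404 lactate reads and 840 ddH2O reads over a 3' UTR peak at chr17:48927528-48928452. The neighbouring 3' UTR window, which also touches SNF8, held 398 and 806. UBE2G2, which serves the degradation of misfolded proteins of the endoplasmic reticulum, held 398 and 555 reads at chr21:44768990-44769832. UBE2R2, a relative of CDC34 that works with SCF ligases, held 206 and 405 reads at chr9:33917333-33917928. With reads scaled by the sums given above, these 3 windows were within 2-fold between the IPs, with log2 ratios of lactate over ddH2O of -0.19 for UBE2Z, 0.38 for UBE2G2 and -0.11 for UBE2R2. On the MAnorm-normalized densities, which are used for the calls below, the ratios were 0.12, 0.65 and 0.04, so the sign for UBE2Z and UBE2R2 turns with the scaling. UBE2E2 showed another pattern, with its densest windows in introns. The lactate IP had the larger number of reads there despite its smaller sum outside MT-RNR2 and MALAT1. The intronic window at chr3:23362835-23364800 held 102 and 80 reads, and that at chr3:23349991-23350734 held 86 and 62.

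HECT ligases had the sparsest windows, with a median of 11 reads over both IPs, beside 13 over the whole set. WWP1, a ligase of the NEDD4 family, held 90 and 82 reads in its densest window, in the 3' UTR. ITCH, a NEDD4-family ligase known from immune regulation, held 74 and 79 reads at chr20:34508368-34508808 in the 3' UTR. UBE3C, a ligase found at the proteasome, held 42 and 104 at chr7:157268311-157268510. NEDD4, the founding member of its family, had 10 and 20 peaks, but its densest window held only 18 and 35 reads. NEDD4L, known for limiting the epithelial sodium channel, held 28 and 74 reads in its densest window, in the 3' UTR. UBE3A, the ligase lost in Angelman syndrome, held 50 and 93 reads around an exonic peak at chr15:25371515-25371994. The antisense RNA SNHG14 runs through the same region, and the library kit does not mark strand, so reads of the pair cannot be told apart.

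Cullin windows were densest in the 3' UTR of CUL4B and in exons and the 3' UTR of CUL5. CUL5, the scaffold of ligases with SOCS-box adaptors, held 59 and 153 reads at chr11:108097513-108097909 in an exon. Its 3' UTR windows held 44 and 128 reads at chr11:108054504-108054782 and 35 and 118 at chr11:108052740-108052983. CUL4B, which joins DDB1, held 89 and 162 at chrX:120525900-120526216. CUL1, the scaffold of SCF ligases, held 31 and 75 reads at its 3' UTR peak at chr7:148800779-148800991, listed for lactate alone. CUL3, the partner of BTB adaptors such as KEAP1, had intronic windows with more reads in the lactate IP than in the ddH2O IP: an overlapping pair held 34 and 20 reads (chr2:224516342-224516877) and 32 and 20 reads (chr2:224515665-224516034). CUL5 had such intronic windows too, the densest with 22 and 12 reads at chr11:108017351-108017641. By the 2-fold call on the densities it had 1 higher and 2 lower windows in all. The lower ones were the 3' UTR window with 35 and 118 reads (log2 ratio -1.08) and an exonic one. After scaling by the sums CUL5 had 5 higher windows and no lower one.

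The densest windows of the whole set belonged to FBXO27 and FBXO17, a pair of F-box genes on chromosome 19 from a group that recognises glycoproteins. FBXO27 held 1120 and 1604 reads over a 3' UTR peak at chr19:39024155-39024610. FBXO17 held 974 and 1763 reads over an exonic peak at chr19:38942168-38942869, with folds over input of 14.8 for lactate and 10.4 for ddH2O. Its 3' UTR window, beside it, held 936 and 1651. Scaled by the sums, the log2 ratio was 0.01 in FBXO17 (95% interval -0.11 to 0.12) and 0.34 in FBXO27 (0.23 to 0.46). On the normalized densities it was 0.52 (0.40 to 0.63) and 0.86 (0.75 to 0.97), within 2-fold under both scalings. FBXW11, an adaptor that recognises phosphorylated beta-catenin, held 136 and 283 reads in its 3' UTR at chr5:171861576-171861920. FBXW7, the adaptor for cyclin E, MYC and NOTCH1, held 77 and 75 reads in its 3' UTR at chr4:152322110-152322319. After scaling by the sums the lactate IP had more reads there (log2 0.90), although the lactate peak did not reach a q-value below 0.05. FBXW5 had a single peak, in the 3' UTR at chr9:136940298-136941326, but with 96 and 118 reads it was among the most enriched of all, 26.4-fold over input for lactate and 31.1-fold for ddH2O.

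Among the RING genes, RNF167, a membrane ligase of the endolysosomal system, had the densest window, with 701 and 1514 reads at chr17:4944980-4945194. Its peak was listed for ddH2O alone at 2.75-fold over input, and the window touches PFN1, the gene of an abundant actin-binding protein, so the reads cannot be assigned to RNF167. RNF26, a ligase of the endoplasmic reticulum, held 260 and 468 reads in its 3' UTR at chr11:119336835-119337413. RNF187 held 205 and 436 in its 3' UTR at chr1:228494580-228495058. The most enriched RING peaks were others. RNF130 had an intronic peak 25.6-fold over input for lactate and 17.1-fold for ddH2O, with 89 and 80 reads at chr5:179999984-180001244. RNF169, which binds ubiquitinated chromatin at DNA breaks, had an exonic peak at chr11:74809997-74810381 that stood 32.2-fold over input for ddH2O and 7.89-fold for lactate.

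TRIM28, the corepressor of KRAB zinc-finger proteins, had the densest TRIM window, with 285 lactate reads and 453 ddH2O reads around an exonic peak at chr19:58549961-58550163 that was listed for lactate alone. The next peak of the gene, exonic too and in both lists, lay at chr19:58550236-58550795, and its overlapping window held 283 and 442 reads. Folds over input were 3.33 and 4.73 there. That peak region holds the hairpin of MIR6807 (chr19:58550285-58550376, plus strand, GRCh38.p14), the only one of 14 miRNA hairpins on the spans of ubiquitin genes that lay under one of their peaks. The ddH2O peak covered all 92 bases of the hairpin and the lactate peak, chr19:58550310-58550741, covered 67. The mature products, taken from RefSeq, are given since reads of the miRNA precursor and of the TRIM28 mRNA cannot be told apart here. Capitals mark the seed, bases 2 to 8.
hsa-miR-6807-5p: gUGAGCCAguggaauggagagg
hsa-miR-6807-3p: cACUGCAUuccugcuuggcccag
The 3p arm (chr19:58550354-58550376) lay under both peaks, whereas the 5p arm (chr19:58550285-58550306) lay under the ddH2O peak and ended before the lactate peak began.

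Other TRIM genes had strong peaks in both lists. TRIM25, the ligase of the RIG-I pathway, held 252 and 476 reads in its 3' UTR at chr17:56888441-56889405, with folds of 7.22 and 12.1. TRIM44 had the highest fold of the set for ddH2O, 35.8, and 23.9 for lactate, over an exonic peak at chr11:35663056-35663662 with 57 and 73 reads. Its 3' UTR windows were denser but less enriched. The densest held 166 and 513 reads at chr11:35810538-35811113 (folds of 6.24 and 5.42, log2 ratio of lactate over ddH2O -0.61 on the normalized densities), and another held 219 and 370 at chr11:35807610-35808346 (folds of 7.17 and 4.65, log2 ratio 0.25). TRIM16 had the highest fold of the lactate peaks, 26.6, and 12.1 for ddH2O, over an intronic peak at chr17:15667778-15668799 with 75 and 47 reads. TRIM16 has a close copy, TRIM16L, and how reads shared by the copies were counted is not given in the sources used here. TRIM66, a relative of TRIM28, had an intronic peak at chr11:8659856-8661161 that was 18.9-fold over input for lactate and 33.2-fold for ddH2O, with 76 and 116 reads.

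For the comparison of lactate with ddH2O, windows with at least 20 reads over both IPs were used, 751 of the 2000. A window is called higher or lower with lactate where the ratio of the MAnorm-normalized densities passes 2-fold, a description of 1 library against 1 with no test. Reads of an IP library alone do not tell binding from the amount of an RNA, nor fewer cells from less RNA per cell. By this measure 72 windows were higher, 9.59% (7.68 to 11.9%), against 7.30% of the 33437 windows of all protein-coding genes. Lower were 123, or 16.4% (13.9 to 19.2%), against 18.3%. The median log2 ratio was -0.08 (quartiles -0.72 and 0.51), beside -0.20 over all protein-coding windows. Most windows of the set, 556 of 751, were thus within 2-fold. The scaling sets the balance between the directions. With reads scaled by the sums outside MT-RNR2 and MALAT1, 170 windows were higher (22.6%, against 16.4%) and 47 lower (6.26%, against 8.57%), and the median was 0.28, beside 0.12. This scaling raises the ratio of all but the densest windows, so a window called higher on the densities could hardly lose that call under it. Since 68.4% of the windows had another summit within a window length, and so share reads with a neighbour, the intervals are too narrow.

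At the level of genes, 168 had a window with enough reads. A higher window was found in 43 of them (25.6%, 19.6 to 32.7%), against 15.9% of 8818 protein-coding genes, and a lower one in 71 (42.3%, 35.0 to 49.8%), against 36.9%. Genes of the set had 4.47 windows with enough reads each on average, against 3.74 over all protein-coding genes, and the part of this in the shares was not tested. After scaling by the sums 63 genes (37.5%, against 29.1%) had a higher window and 37 (22.0%, against 21.1%) a lower one. On the densities both kinds occurred in 27 genes (16.1%, 11.3 to 22.4%) and neither in 81 (48.2%, 40.8 to 55.7%). The same shares over all protein-coding genes were not computed, so these counts describe the set alone. UBE2G1 is an example of both, with 4 higher and 4 lower of its 22 windows. UBE2O, a large enzyme with E2 and E3 activity, had 3 higher and no lower among 7, and RNF180 had 3 higher and no lower among 4. RNF216 had 5 lower and no higher among 23, and TRIM13 and RNF121 had 4 lower and no higher each. After scaling by the sums UBE2G1 had 7 higher and 1 lower, UBE2O 5 higher and RNF180 4 higher with no lower, RNF216 1 higher and 2 lower, TRIM13 1 lower and RNF121 1 higher.

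The balance of calls on the densities is given by family, to be read beside the 7.30% higher and 18.3% lower of all protein-coding windows. The E2 enzymes had as many higher as lower windows, 20 and 20 of 159 (12.6% each), with a median log2 ratio of 0.12. F-box genes had 22 higher and 28 lower of 188 (11.7% and 14.9%, median 0.12), and cullins 4 and 6 of 29 (median -0.14). HECT ligases had 5 higher and 15 lower of 78 (6.41% and 19.2%, median -0.11), near the share over all protein-coding windows. RING genes were near it too, with 17 and 39 of 210 (8.10% and 18.6%, median -0.18), and TRIM genes had 4 and 15 of 87 (4.60% and 17.2%), with the lowest median, -0.44. After scaling by the sums the E2 enzymes had 47 higher and 5 lower (median 0.52) and the TRIM genes 10 and 6 (median -0.03). The F-box genes then had 50 higher and 13 lower (median 0.48), HECT ligases 18 and 6 (0.37), cullins 8 and 3 (0.23) and RING genes 37 and 14 (0.10), and the TRIM median stayed lowest. Higher windows outnumbered lower ones in every family under this scaling, as they did over all protein-coding windows, with 16.4% higher, 8.57% lower and a median of 0.12. The kind of window moved with the family: 73.6% of E2 windows were intronic and 15.1% in 3' UTRs, whereas TRIM windows were 26.4% intronic and 48.3% in 3' UTRs.

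Ratios are given next by the region of the window. Intronic windows had a median log2 ratio of 0.11, with 58 higher and 63 lower of 430, beside -0.03 for intronic windows of all protein-coding genes, of which 13.0% were higher and 17.3% lower. Exonic windows had a median of -0.33 with 7 higher and 27 lower of 116 (6.03% and 23.3%), beside -0.39, 2.12% and 22.7% for all protein-coding genes. The 3' UTR windows had a median of -0.18 with 6 and 26 of 195 (3.08% and 13.3%), beside -0.22, 2.28% and 15.5%. The 5' UTR had few windows, 10, of which 7 were lower and 1 was higher, with a median of -1.42. For all protein-coding genes the 5' UTR median was -0.46 and 29.9% of windows were lower. Scaling by the sums moved the medians to 0.54, -0.01, -0.03 and -0.79 and kept the 5' UTR lowest. Over all protein-coding genes these medians were 0.45, -0.14, -0.02 and -0.12, with exons lowest. The calls became 139 higher and 29 lower in introns (32.3% and 6.74%, beside 27.3% and 7.65% for all protein-coding genes). In exons they became 17 and 10 (14.7% and 8.62%, beside 6.78% and 11.6%), and in 3' UTRs 13 and 4 (6.67% and 2.05%, beside 6.61% and 7.03%). In 5' UTRs they became 1 and 4 of 10 (10.0% and 40.0%, beside 10.7% and 14.7%). On the densities the intronic median was above the 3' UTR median in 5 of the 6 families, for TRIM genes 0.13 and -0.45, but not for RING genes, at -0.11 and -0.08. With library sums it was above in all 6, with 0.28 and 0.05 for RING genes.

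TRIM66 had the highest ratio among windows with at least 50 reads. An intronic window at chr11:8644712-8645222 held 125 lactate reads and 36 ddH2O reads, a log2 ratio of 2.42 (exact 95% interval for counting error 1.88 to 3.0), or 2.63 after scaling by the sums. Folds over input were 12.7 for lactate and 1.51 for ddH2O. The most enriched peak of the same gene, given above, was within 2-fold, with 76 and 116 reads and a log2 ratio of 0.13. Another intronic window of TRIM66, at chr11:8668104-8669175, was higher with 45 and 29 reads (1.12, 0.42 to 1.85).

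The other 4 of the 5 genes with the highest ratios at this read minimum were F-box, HECT and TRIM genes. FBXL17, an adaptor that inspects BTB proteins, held 45 and 20 reads in an intron at chr5:108211218-108211629 (1.59, 0.81 to 2.43). FBXO22, an adaptor known for the histone demethylase KDM4A, held 116 and 66 reads at chr15:75939506-75940092 in its 3' UTR (1.52, 1.07 to 1.98), a window that also touches NRG4. Its neighbour in the same 3' UTR, chr15:75938463-75939339, was below the threshold with 121 and 110 reads (0.92, 0.54 to 1.31). ITCH held 43 and 23 reads at chr20:34507583-34508012 (1.35, 0.59 to 2.15), where the peak was listed for ddH2O alone. Its next 3' UTR window held 74 and 79 (0.59). Of the 10 ITCH windows with enough reads, 1 was higher and 3 were lower, with a median of -0.03. After scaling by the sums 2 were higher and 1 was lower. The TRIM16 window described above had a log2 ratio of 1.29 (0.74 to 1.85). After scaling by the sums, which raises the ratio of all but the densest windows, the 5 ratios lay between 1.53 for TRIM16 and 2.63 for TRIM66. Among windows chosen after their values were seen, 3 overlapping ones in an intron of HERC1 near chr15:63621562-63622102 held 51 and 30 reads (log2 1.27), 39 and 22, and 49 and 30.

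Low ratios included windows in the 5' UTRs of F-box genes. FBXO11 held 12 lactate reads and 65 ddH2O reads over a 5' UTR peak at chr2:47906199-47906502, a log2 ratio of -1.89 (-2.92 to -0.99). The peak was listed for ddH2O alone, at 15.3-fold over input, and the uncharacterised gene LOC100506235 lies in the window. FBXO48, an F-box gene elsewhere on chromosome 2, held 11 and 56 reads over a 5' UTR peak at chr2:68466217-68466553 (-1.83, -2.91 to -0.88). FBXW11 held 8 and 43 reads at chr5:171867736-171867935, an exonic peak (-1.93, -3.23 to -0.83), and a 3' UTR peak at chr5:171868260-171868652 shares these reads. Its dense 3' UTR window had a ratio of -0.14 by contrast. RNF169 held 9 and 42 reads in an intron at chr11:74827644-74828405 (-1.74, -2.96 to -0.68), and UBE2E3, an E2 enzyme, held 10 and 46 reads in an intron at chr2:181055004-181056105 (-1.71, -2.86 to -0.70). These 5 windows stayed past 2-fold after scaling by the sums, between -1.23 for UBE2E3 and -1.48 for FBXO11.

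Genes with textbook roles had ratios on both sides of equality. FBXW7 and WWP1 had ratios of 0.72 and 0.85 in their 3' UTR windows, neither past 2-fold. In both windows the ddH2O peak reached a q-value below 0.05 and the lactate peak did not. Of the 5 FBXW7 windows with enough reads, 1 was higher and 1 was lower. The exonic window over its most enriched lactate peak held 44 and 82 reads (-0.26, -0.82 to 0.29). Another exonic window, near the 3' UTR one, held 70 and 62 (0.82, 0.31 to 1.34). CUL3 had 3 higher and 2 lower of 7 windows, and the intronic pair above was among the higher ones (1.17, 0.33 to 2.04, and 1.08, 0.22 to 1.96). Its densest windows, an overlapping pair of 55 reads each, were below the threshold (28 and 27 reads, 0.49). CUL1 had a ratio of -0.67 (-1.33 to -0.05) at its 3' UTR. NEDD4L had a lower 3' UTR window, with 16 and 58 reads (-1.33, -2.23 to -0.51), which was not past 2-fold after scaling by the sums (-0.93). UBE3A had a window on each side: an intronic one at chr15:25423702-25424029 with 36 and 24 reads (1.02, 0.24 to 1.83), and an exonic one at chr15:25375298-25375916 with 3 and 26 reads (-2.56, -4.93 to -0.85), again within SNHG14.

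**Figure D1:**
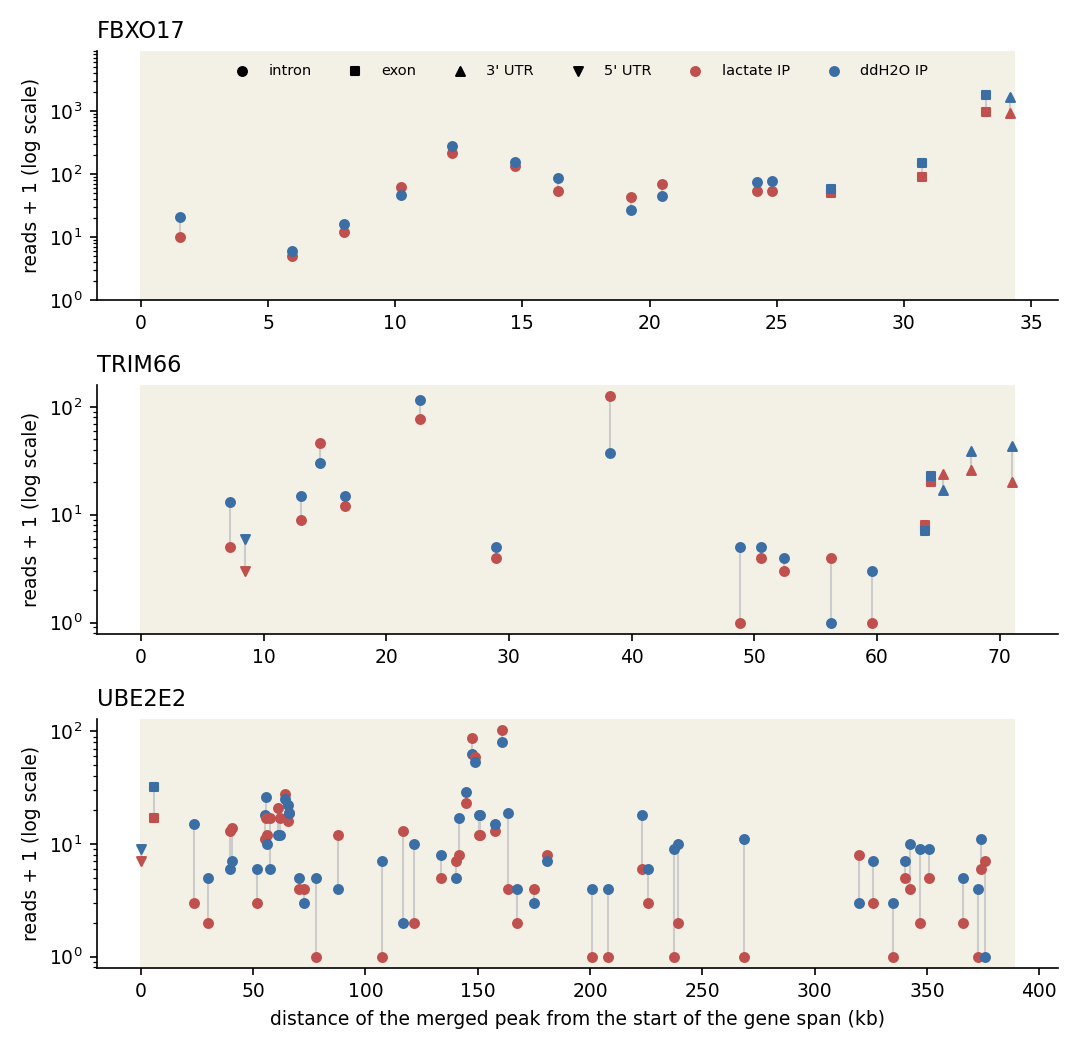
Reads plus 1 per window on a log scale (vertical axis) against the distance of the merged peak from the start of the gene in kb (horizontal axis) for FBXO17, TRIM66 and UBE2E2, by IP library and region; shading marks the gene span and grey lines join the libraries. FBXO17 is densest at its 3' end (974 and 1763 reads), TRIM66 has the window with 125 lactate and 36 ddH2O reads in mid-gene, and UBE2E2 has many sparse intronic windows over 389 kb.

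Whether a peak was listed and how many reads its window held were different measures. Of the 98 windows with enough reads whose peak was listed for lactate alone, 34 were higher and 3 were lower. Of the 252 listed for ddH2O alone, 84 were lower and 5 were higher, and of the 401 in both lists 33 were higher and 36 lower. For comparison with all protein-coding windows, 34.7% of the windows listed for lactate alone were higher, beside 27.1%, and 33.3% of those listed for ddH2O alone were lower, beside 36.2%. Of those in both lists 8.23% were higher and 8.98% lower, beside 7.18% and 8.92%. After scaling by the sums the windows listed for ddH2O alone had 25 higher and 33 lower (9.92% and 13.1%, beside 6.22% and 19.2%). Those in both lists then had 93 and 12 (23.2% and 2.99%, beside 17.2% and 2.78%), and those listed for lactate alone 52 and 2 (53.1% and 2.04%, beside 47.6% and 0.894%). The 3 windows against their list, chosen after their values were seen, were in FBXO9, RNF145 and TRIM13. The FBXO9 window, in the 5' UTR at chr6:53067944-53068143, held 6 lactate and 38 ddH2O reads although its peak was called in the lactate list, at 2.21-fold over input. In the other direction were windows of FBXO32, HERC1, ITCH, UBE2E2 and UBE2Q2. Fold over input and reads also parted at single sites. At the UBE3A exonic peak at chr15:25371515-25371994 the fold was 3.60 for lactate and 31.0 for ddH2O, whereas the window held 50 and 93 reads, a log2 ratio of -0.22 (-0.75 to 0.29). At the UBE2Z 3' UTR peak the folds were 3.56 and 12.1 and the log2 ratio of the window 0.12 (-0.05 to 0.30) on the densities and -0.19 after scaling by the sums. Over the 528 windows with a fold in both lists the median log2 ratio of the folds was -0.16, beside -0.19 for all protein-coding genes.

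Other parts of the ubiquitin pathway were described by lists written from general knowledge. Of 9 E1 enzymes and activators of ubiquitin-like proteins, 5 had a lactate peak and 8 a ddH2O peak, with 5 higher and 2 lower of 33 windows. UBA1, the main ubiquitin-activating enzyme, held 137 and 205 reads in an exonic window. Of 20 partners of cullin ligases, 14 and 16 had a peak, with 11 higher and 7 lower of 44 windows. DDB2 and KLHL20 each had 4 of the higher ones. Of 45 other ligases and subunits of the anaphase-promoting complex, 43 had a peak in each list, with 33 higher and 34 lower of 238 windows. The median log2 ratios of these 3 lists were 0.04, 0.01 and -0.14, beside -0.20 for all protein-coding windows, of which 7.30% were higher and 18.3% lower. After scaling by the sums they had 9 higher and 1 lower, 13 and 2, and 53 and 9 windows, with medians of 0.48, 0.40 and 0.24. As given above, 47.1% and 58.4% of all protein-coding genes had a peak.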

How the data were processed

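NSUN2 RIP-seq of PANC-1 cells was available as 1 peak list per condition and 1 table of merged peaks. Peaks were called by the authors per IP library, with the matching input as control and no pooling. Per the file headers each peak has a ratio (fold enrichment over input), a −log10 p-value and a q-value, with the gene, biotype and region. Per the labels the tools included fastp 0.20.1, HISAT2 2.1.0, MACS2 2.2.7.1, bedtools 2.29.2 and HOMER 4.11.1, with builds GRCh38 and hg38, and libraries were made with a SMART-Seq v4 kit, which does not mark strand. For the merged lists the authors used MAnorm, whose deposited output gives every merged peak a normalized signal (read density per kb) in each IP library. Its M value, A value and P value are the authors' own comparison and were not used.

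Reads in 2000-base windows were recovered from the deposited densities, taking each density as 1 plus the reads, divided by the window in kb. A line in the mean log2 density, with a slope of 0.17 and an intercept of -0.20, was taken as added to their log2 ratio. All 116484 windows gave whole reads within 0.02 reads or 1 in 10000, and the steps were tested on simulated windows. Gene and region of a merged peak were those of the called peaks it overlapped by at least 1 base. Of the 2550 peaks of the ubiquitin genes, 96.5% lay on the RefSeq span of their gene (GRCh38.p14). Windows with at least 20 reads over both IP libraries were compared, and a ratio past 2-fold counted as higher or lower, with no p-value since each group is 1 library. Shares have Wilson intervals and single ratios exact Clopper-Pearson intervals, at 95%, for counting error only, and reads without molecular identifiers are not independent molecules. The depth of the input libraries is unknown.

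The genes, the lists and the rule for named genes were chosen with earlier results of these data known. Named were STUB1, in each family the 3 genes with the densest window, in each list the 3 with the highest fold at a q-value below 0.05 and the 3 with the most peaks, the 5 highest and 5 lowest ratios among windows with at least 50 reads, and 10 genes with textbook roles. No genome sequence was used here. A further short list of pathway genes is not reported here. The alternatives were a q-value below 0.05, a fold enrichment of at least 4, equal list sizes, bases covered, library sums, a fold over 4, other read minimums, an overlap of 50% and exon and UTR peaks. Windows with no neighbouring summit, windows touching no other gene, the set without FBXO17 and FBXO27, and fold over input were added after seeing the data. Scripts ran in Python 3.11.15 (pandas 2.3.3, numpy 2.4.6, scipy 1.17.1), and figures were drawn with matplotlib 3.10.9.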

Additional observations from a re-analysis of the deposited data

How the results depend on the processing

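With 1 library per group no replicate could be left out. No paired analysis was possible because each group holds 1 library and no test was run. Scaling by library sums gave 170 higher and 47 lower windows, against 72 and 123, and turned the median log2 ratio from -0.08 to 0.28. With at least 50 reads the counts were 20 and 28 and the median turned to 0.02, and with no read minimum they were 276 and 649, with a median of -0.33. A fold over 4 left 13 higher and 21 lower. Exon and UTR peaks alone gave 14 and 60, and windows with no other summit within a window length gave 23 and 43, with a median of -0.18. Fewer windows enter under the last 2, and the cause of the turned medians was not tested. A q-value below 0.05 moved the intronic share to 59.3% for lactate and 60.1% for ddH2O, the 3' UTR share to 24.0% and 21.8%, the exonic share for ddH2O to 16.9% and the median fold to 4.91 and 4.85. A fold of at least 4 gave intronic shares of 63.8% and 62.9%, 3' UTR shares of 21.3% and 18.9% and an exonic share of 16.7% for ddH2O. Counted by bases covered, 3' UTRs held 20.3% and 18.3%, and introns 65.0% for ddH2O. Genes with a lactate peak fell from 176 to 131 at a q-value below 0.05 and 121 at a fold of at least 4, and those with a ddH2O peak from 207 to 175 and 150, or 176 with lists of equal size. The 5 named low ratios kept their direction under library sums, while the medians of HECT, cullin and RING windows turned from -0.11, -0.14 and -0.18 to 0.37, 0.23 and 0.10. Depth limits the single windows, most of which hold few reads.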

Other observations

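The region around FBXO17 and FBXO27 was dense beyond these genes, a comparison chosen after their values were seen. Of 252 windows of other protein-coding genes within 1 Mb of the pair, from 41 genes, 26.2% held at least 100 reads over both IPs. The share was 13.0% of 3594 windows on the rest of chromosome 19 and 8.78% of 91462 windows on all other chromosomes, and 77.3% of the 22 windows of FBXO17 and FBXO27. The median log2 ratio of the neighbouring windows was 0.20 on the MAnorm densities and 0.28 after scaling by library sums, beside -0.21 and 0.11 on all other chromosomes. Reads are not given per transcript length or expression, and the expression of these genes was not analysed here.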
